A study of Mus musculus with 4 samples.

Results

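Chemokine receptors are G protein-coupled receptors of the leukocyte surface that steer cells along gradients of small secreted proteins, the chemokines. They signal through inhibitory G proteins and are taken up and sorted in endosomes after ligand binding. In the thymus, CXCR4 and CCR9 act while thymocytes are in the cortex, and CCR7 and CCR4 are gained around positive selection and draw cells to the medulla. CCR8, CXCR3 and CCR2 are better known from mature, regulatory, effector or innate T cells, and CCR2 also from monocytes.

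The receptors described here were Ccr7, Ccr9, Cxcr4, Ccr4, Ccr8, Cxcr3 and Ccr2, taken as every non-control array probe that carried one of these gene names. That gave 10 probes for 7 genes, of 41174 non-control probes in all. The set was put together by function, but with the genotype differences and background flags of these same arrays known, so it counts as selected on those values. The genotype differences are therefore given as descriptions, with no p-value.

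Gene expression was measured on 1-colour arrays in sorted CD4+CD8+ double-positive (DP) thymocytes, cells that carry both co-receptors before they become CD4 or CD8 T cells. The mice were untreated, sex-matched littermates of 6 to 12 weeks. All carried loxP-flanked alleles of Usp8, a deubiquitinase that acts on receptor sorting at endosomes. In the group USP8ff no Cre was present, and in USP8ff_CD4Cre the Cre recombinase was under control of Cd4 sequences, which are active in DP cells and their descendants. Each group had 2 samples and each sample combined cells from 2 mice, 8 mice in all. Cre without the loxP-flanked alleles was not among the groups, so effects of Cre and of the deletion cannot be told apart. The comparison asked how receptor transcripts differ between DP cells with and without the Cre on these Usp8 alleles.

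Levels are log2 signals after subtracting each array's own 75th percentile, so that 0 is the signal of that percentile. Differences are USP8ff_CD4Cre minus USP8ff on the same scale, with the standard error (SE) of the limma fit. A probe counted as measured where the scanner flagged it well above background. Between 45.0% and 48.9% of probes reached that on an array, and no spot was saturated. All 11 DP marker genes, Cd4, Cd8a and Rag1 among them, were well above background, with a median difference of -0.06 (-0.185 with USP8ff replicate 1 left out, -0.0139 with USP8ff_CD4Cre replicate 1 left out). Of these, 8 were negative and 3 positive. The groups did not overlap for 5 lower and 1 higher in USP8ff_CD4Cre, beside 16.3% and 24.3% of all genes. Rag2 had -0.33 ± 0.13, Cd1d1 -0.25 ± 0.12, Rag1 -0.19 ± 0.11 and Cd3g -0.16 ± 0.10. The 1 Usp8 probe above background read -0.23 and -0.40 (log2) without Cre and -1.03 and -1.23 with it, so 56.9% of the USP8ff signal was left. Whether it lies in the deleted part was not examined.

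Positions below are those of the scanner files, on mouse build mm9, and the exon or UTR they fall in was not examined. The 60-base probes on which the lower or conflicting receptor values rest are shown first, 5′ to 3′ as the scanner files list them. Capitals mark the 30 bases that both Ccr4 probes share.
Ccr7: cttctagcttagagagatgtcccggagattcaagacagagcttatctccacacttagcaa
Cxcr3: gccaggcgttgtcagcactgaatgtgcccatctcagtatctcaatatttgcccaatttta
Ccr2, probe 1: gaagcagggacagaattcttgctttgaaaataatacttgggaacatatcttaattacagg
Ccr2, probe 2: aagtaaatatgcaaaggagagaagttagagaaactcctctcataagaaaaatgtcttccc
Ccr4, probe 1: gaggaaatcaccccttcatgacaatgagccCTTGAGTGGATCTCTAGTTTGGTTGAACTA
Ccr4, probe 2: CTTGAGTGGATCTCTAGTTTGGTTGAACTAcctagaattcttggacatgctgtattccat
The longest run that any of the 10 probes shared with a probe of another receptor in the set was 10 bases. With probes of all other genes it was 19 bases, for the first Ccr2 probe on the reverse strand. The probes of Ccr4 therefore share sequence and are not independent readings, while the paired probes of Cxcr4 and of Ccr2 lie apart.

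Ccr7, the receptor for CCL19 and CCL21 that brings thymocytes into the medulla, was lower in both USP8ff_CD4Cre pools. Its 1 probe (chromosome 11, minus strand, listed at 99005513 to 99005538) was well above background on all 4 arrays. The listed position covers 26 of the probe's 60 bases, and where the rest lie was not examined. The USP8ff pools read -0.51 and 0.03 (log2), the USP8ff_CD4Cre pools -1.29 and -1.66. The groups did not overlap, and the lower USP8ff pool lay well above the higher USP8ff_CD4Cre pool. As scanner intensities these were 414 and 605.3 against 216.9 and 177.1. The difference was -1.24 ± 0.23 (SE, n = 2 against 2), which left 42.4% of the USP8ff signal. For scale, 90% of all 13062 genes measured had differences between -0.37 and 0.36. The 2 USP8ff pools themselves differed 1.45-fold. In a bulk sample, fewer cells of a type and less RNA per cell cannot be told apart.

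No gene passed the limma test after Benjamini-Hochberg adjustment (0 of 13062, or 0%), and so no receptor did. Before adjustment, 970 genes (7.43%) had a p under 0.05, 452 (3.46%) lower and 518 (3.97%) higher in USP8ff_CD4Cre. The groups did not overlap for 40.6% of genes, 16.3% lower and 24.3% higher in USP8ff_CD4Cre, and the receptors below are to be read against those shares. Nothing is concluded from the number of receptors without overlap, since the genes were picked with results known.

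**Figure D1:**
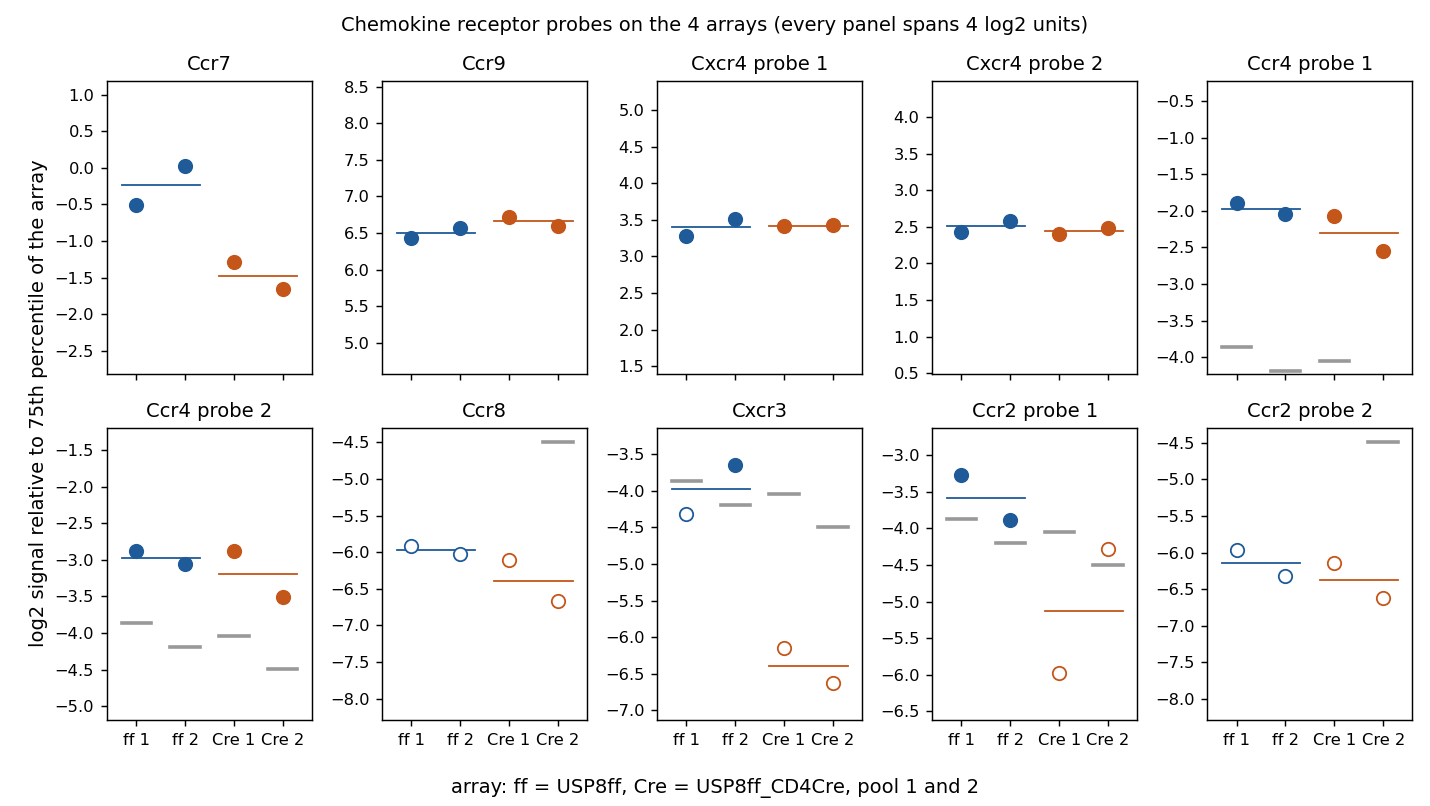
Log2 signal of each of the 10 receptor probes on the 4 arrays (y axis, relative to the 75th percentile of the array), with USP8ff pools in blue and USP8ff_CD4Cre pools in orange. Filled points were well above background and open points were not, coloured lines are group means, and grey ticks show the lowest signal well above background on that array where it falls within the panel. Ccr7 separates by genotype with all 4 points filled, while Ccr8 and the second Ccr2 probe have no filled point.

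Ccr9, the CCL25 receptor of cortical thymocytes, had nearly the same signal in both genotypes. Its probe (chromosome 9, plus strand, 123690334 to 123690393) read 6.44 and 6.57 in the USP8ff pools, and 6.72 and 6.60 with Cre. The USP8ff_CD4Cre pools were both higher by a narrow margin. The difference was 0.15 ± 0.12, and with quantile normalization it was 0.05 and the groups overlapped. As scanner intensities, between 51039 and 56332, the groups overlapped too.

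Cxcr4, the CXCL12 receptor that acts at the pre-TCR stage and in the cortex, was read by 2 probes about 0.6 kb apart (chromosome 1, minus strand, 130485079 to 130485138 and 130485659 to 130485718). The first read 3.28 and 3.52 (log2) in the USP8ff pools against 3.41 and 3.43 with Cre. The second read 2.43 and 2.59 against 2.40 and 2.48. The groups overlapped on both probes. The differences were 0.03 ± 0.13 and -0.07 ± 0.12, of opposite sign and both within their errors.

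Ccr4, the receptor for CCL17 and CCL22 that is gained early after positive selection, had somewhat less signal in USP8ff_CD4Cre, mainly in 1 pool. Its first probe (chromosome 9, minus strand, 114400791 to 114400850) gave -1.90 and -2.05 (log2) without Cre, and -2.07 and -2.55 with it. USP8ff_CD4Cre replicate 1 lay just under USP8ff replicate 2. The second probe, at 114400761 to 114400820, gave -2.88 and -3.06 against -2.88 and -3.51, and there the groups overlapped. The differences were -0.34 ± 0.19 and -0.22 ± 0.23. Without USP8ff_CD4Cre replicate 2 the difference of the first probe was -0.09, and without USP8ff_CD4Cre replicate 1 it was -0.58. With quantile normalization, with normexp background correction or with the mean of the probes the groups overlapped.

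Cxcr3, the receptor for CXCL9, CXCL10 and CXCL11 on effector and innate-like T cells, was near the limit of detection. Its probe (chromosome X, minus strand, 98926920 to 98926979) was well above background on 1 of the 4 arrays, USP8ff replicate 2. Its log2 values were -4.32 and -3.65 without Cre, against -6.15 and -6.62 with it. Both USP8ff_CD4Cre pools were at the level of probes without signal, whose medians on those arrays were -6.00 and -6.47. The readings differed by -2.41, a value that rests on 3 readings not well above background and is given with no fold. In the authors' deposited table this probe is listed at 5.28-fold, marked down, with a p-value of 0.028 from a test that is not named. The reference group of that fold is not stated, and no size is taken from it here. Cxcr3 is the only one of the 7 genes in that table. With normexp, which models the background jointly and adds an offset, the difference was -0.59. Cxcr3 did not pass the filter on dim probes and was not in the fit over 13062 genes.

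Ccr2, the CCL2 receptor of monocytes and of some memory and innate-like T cells, was measured in USP8ff but in neither USP8ff_CD4Cre pool. Its first probe (chromosome 9, plus strand, 124022948 to 124023007) showed -3.27 and -3.89 (log2) in the 2 USP8ff pools, then -5.97 and -4.28 with Cre. Neither of the 2 readings with Cre was flagged above background. The fitted difference was -1.55 ± 0.57, but it rests on those 2 readings and is no measure of size. With the USP8ff_CD4Cre readings raised to a floor, the signal with Cre was 1.498-fold lower, which is no strict minimum. The floor was the lowest signal well above background on that array, or the probe's own value where higher. The unflagged reading of USP8ff_CD4Cre replicate 2 (-4.28) lay above the lowest flagged signal of its array (-4.49). Without USP8ff_CD4Cre replicate 1 the difference was -0.70 and without replicate 2 of that group it was -2.40, and with normexp it was -0.35. The second probe (124023519 to 124023578) stayed at background on all 4 arrays.

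Ccr8, the CCL1 receptor found on regulatory and some mature CD4 thymocytes, was not detected. Its probe (chromosome 9, plus strand, 120003441 to 120003500) read -5.92 and -6.03 (log2) without Cre and -6.11 and -6.67 with it, and no array flagged it above background. The difference of -0.42 has to be set beside the 20650 probes that were dim on all 4 arrays. Those had a median difference of -0.24, and 83.0% of them were negative. With normexp the difference of Ccr8 was 0.25, while the median of the dim probes was 0.0036. No fold is given for Ccr8 or for the second Ccr2 probe.

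**Figure D2:**
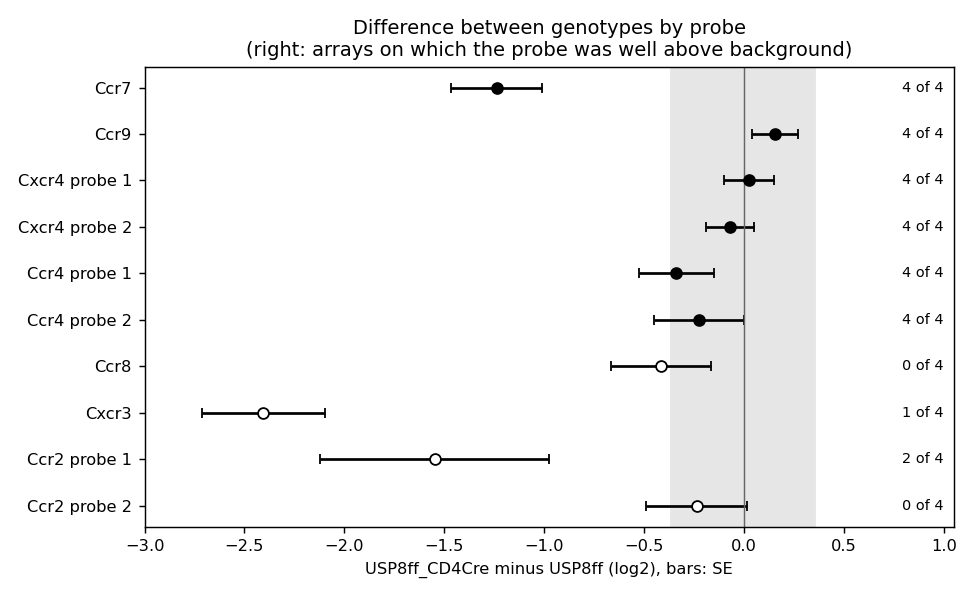
Difference between genotypes (x axis, USP8ff_CD4Cre minus USP8ff, log2; bars are SE) for each receptor probe, with filled points for probes well above background on all 4 arrays and their number of such arrays at the right. The grey band holds the central 90% of all 13062 genes, from -0.37 to 0.36. The SE of the second Cxcr4 and Ccr4 probes comes from a fit of every kept probe. The SE of probes that did not pass the filter comes from a fit of all probes without it. Among probes measured on all arrays, only Ccr7 lies outside the band.

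Ccr7 kept a negative difference in all 12 alternatives run, from -1.51 to -0.97, and its groups did not overlap under any scaling, background or filter setting. Ccr9 stayed between 0.05 and 0.22. The differences of Cxcr3 and Ccr2 depended on the background correction as given above, and the sign of Cxcr4 changed with the scaling, the probe or the arrays used.

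**Figure D3:**
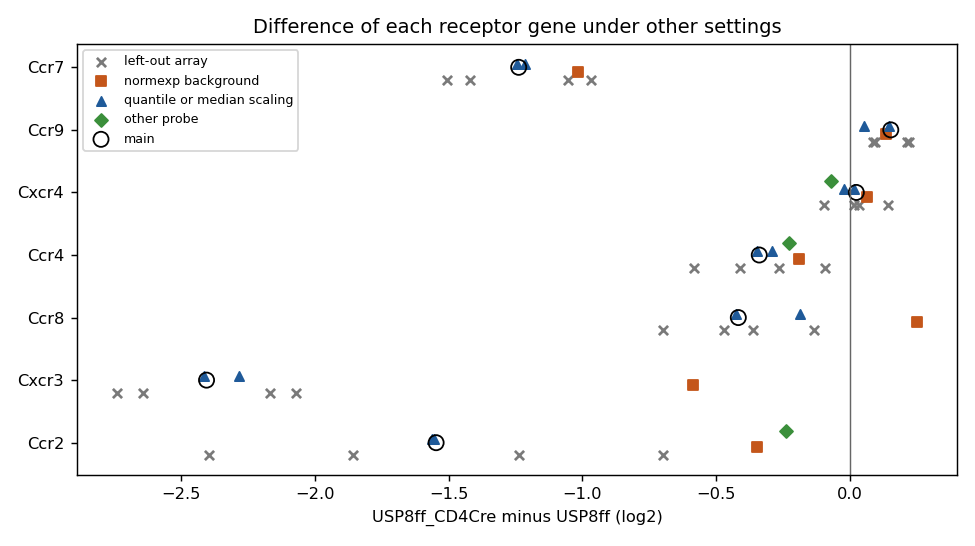
Difference of each receptor gene (x axis, USP8ff_CD4Cre minus USP8ff, log2) under the settings run, with an open circle for the main value, crosses for 1 array left out, squares for normexp, triangles for other scalings and diamonds for a second probe. Ccr7 stays at or below -0.97 throughout, and Ccr8, Cxcr3 and Ccr2 move towards 0 or past it with normexp.

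Of the 7 genes, 4 lie on chromosome 9. Ccr9 and Ccr2 have probes 332.6 kb apart, in a run of 8 neighbouring protein-coding genes that RefSeq orders as Ccr9, Fyco1, Cxcr6, Xcr1, Ccr1, Ccr1l1, Ccr3 and Ccr2. Ccr9, Fyco1, Cxcr6 and Xcr1 were measured on all 4 arrays. Ccr1, Ccr1l1 and Ccr3 had no probe well above background on any array. Cxcr6, the receptor for the membrane-bound chemokine CXCL16, read 0.46 and -0.83 (log2) in USP8ff pools 1 and 2, against 0.94 and -1.04 with Cre. Both arrays numbered 1 were high and both numbered 2 low, and the difference was 0.13 ± 0.74. Xcr1, the XCL1 receptor, had 0.08 ± 0.12 and Fyco1 -0.24 ± 0.27.

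The genes with the most similar values over the 4 arrays were found by the root mean square distance of centred log2 signals, among 9995 other genes with a RefSeq name. With 4 arrays this describes the libraries only. Nearest to Ccr7 were Tmprss4, a membrane serine protease gene (distance 0.07, difference -1.35 ± 0.19), Pomgnt2 (0.13, -1.03 ± 0.19) and Arap3 (0.13, -1.31 ± 0.27). Nearest to Ccr4 were Nab2, a corepressor gene of EGR factors (0.0081, -0.33 ± 0.19), Kmt5b and Dnajb3. For Ccr9 they were Fip1l1, Kmt2e and Afg1l, and for Cxcr4 Slc39a7, Chmp7 and Zfp809, all with distances up to 0.016 and differences within 0.15 of 0.

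Ccr2 had no close match. The nearest gene, Iigp1, an interferon-inducible GTPase gene, was at a distance of 0.21, reading -2.38 and -2.74 (log2) without Cre and -4.71 and -2.81 with it. Next were Oasl2 (0.30) and Ifit1 (0.43), also known as interferon-induced genes. The likeness rests in part on background, since Ccr2 was not above it in either USP8ff_CD4Cre pool. Each of the 3 genes was well above background on both USP8ff arrays and on 1 of the 2 USP8ff_CD4Cre arrays.

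**Figure D4:**
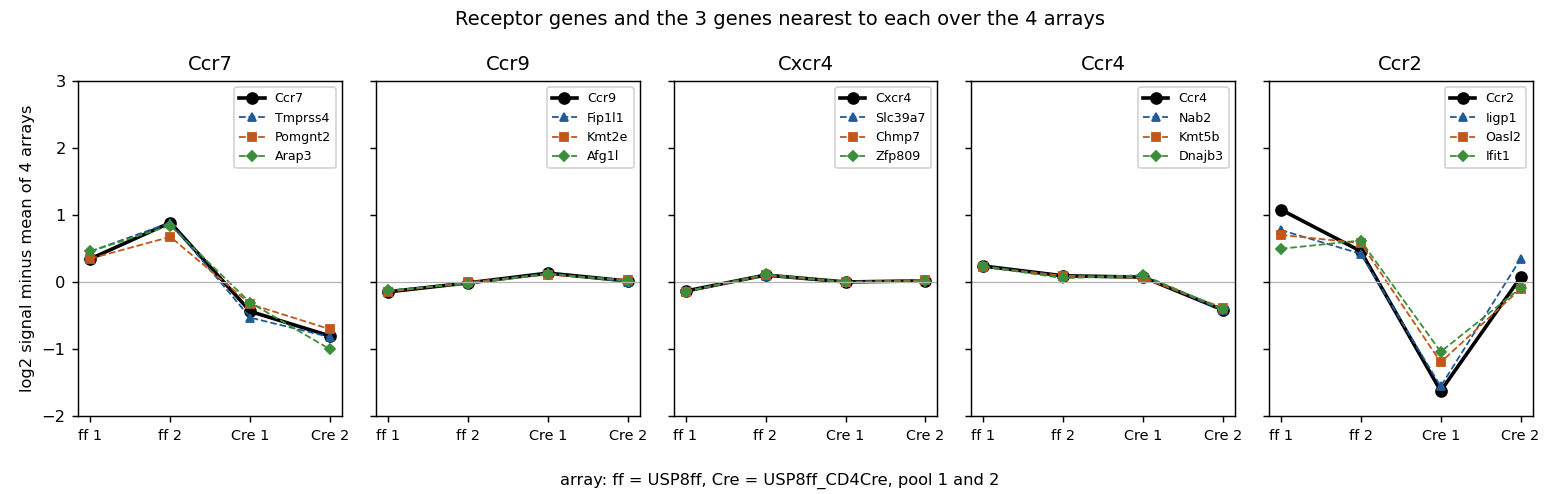
Log2 signal minus the mean of the 4 arrays (y axis) for the 5 receptor genes that passed the filter (black) and the 3 genes nearest to each (coloured, dashed), over the 2 USP8ff and 2 USP8ff_CD4Cre arrays. The Ccr7 panel steps down between genotypes, while in the Ccr2 panel both USP8ff_CD4Cre readings of Ccr2 were not above background.

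The remaining genes of the pathway were described from lists. Of 14 ligand genes of these receptors on the array, 1 passed the filter on dim probes. It was Ccl25, the CCR9 ligand, with a difference of -0.13 ± 0.14. Of 17 other chemokine receptor genes, Cxcr6 and Xcr1 passed. Among 31 measured genes of receptor signalling, 0 were called, 13 had negative and 18 positive differences and the median was 0.03, beside 45.2% negative and a median of 0.02 over all genes. With quantile normalization that list median was -0.03. Gng2, a G protein gamma subunit gene, had -0.99 ± 0.22, from -0.57 and 0.07 (log2) without Cre to -1.22 and -1.25 with it. Rgs2, which speeds G protein inactivation, had -0.35 ± 0.14, and Plcb2, a phospholipase, -0.35 ± 0.16. The GTPase gene Rac1 had 0.25 ± 0.14.

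Other positioning and egress genes (11 measured, 0 called, 6 negative, median -0.07) included the adhesion receptor gene Cd44 at -0.76 ± 0.31 and the integrin genes Itgb7 at -0.37 ± 0.17 and Itga4 at 0.49 ± 0.24. S1pr4 had -0.21 ± 0.14. S1pr1, the sphingosine 1-phosphate receptor needed to leave the thymus, did not pass the filter. Of 11 measured transcription factor genes tied to these receptors, 0 were called and 6 were negative (median -0.05). Klf2, a factor for egress receptors, had 0.23 ± 0.12, Tbx21, a factor known for Cxcr3, 0.15 ± 0.10, and Tcf3, an E protein gene of cortical thymocytes, 0.14 ± 0.11. Receptor ubiquitination and sorting genes had a median of 0.00070 over 11, with Usp8 at -0.81 ± 0.13 and the deubiquitinase gene Usp14, which acts on CXCR4, at 0.28 ± 0.11. The median of the positioning list was 0.08 without USP8ff replicate 2. That of the transcription factors was 0.05 without USP8ff replicate 1, 0.08 without USP8ff replicate 2 and 0.0054 without USP8ff_CD4Cre replicate 2.

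Most measured markers of other thymic cells had negative differences beside those of Ccr7, Cxcr3 and Ccr2, and 0 of these markers were called over all genes. A negative sign was not particular to them, since 8 of the 11 DP markers were negative too (median -0.06). Of 8 measured mature single-positive genes 7 were negative (median -0.95), with summed signals of 157.8 and 172.4 times the array's 75th percentile without Cre, against 156.1 and 160.3 with it. Most of that sum came from Klf2 and Cd52, which had differences of 0.23 and -0.46, so it says little of the other genes. Il7r, Itgae and Gimap4 passed the filter through USP8ff only, and their unflagged readings with Cre enter the median. With the filter on all 4 arrays that median was -0.4565. With readings raised to a floor as for Ccr2, Il7r was 5.01-fold and Itgae 4.02-fold lower, and S1pr1 did not pass the filter. Of 5 measured regulatory and effector T cell genes 4 were negative (median -0.39), with sums of 22.0 and 25.1 against 19.3 and 19.1. Gpr83 passed the filter through USP8ff only, being unflagged in USP8ff_CD4Cre replicate 1. With the filter on all 4 arrays the median of this list was -0.2934. Foxp3, Il2ra and Ctla4 did not pass. Of 5 measured NK and innate T cell genes 3 were negative and 2 positive, with sums of 4.28 and 4.37 against 3.94 and 5.29. Their median was -0.86, -0.56 without USP8ff replicate 2, and -0.3525 with the filter on all 4 arrays. Il2rb passed the filter through USP8ff only, being unflagged in USP8ff_CD4Cre replicate 1. Nkg7 had -2.09 ± 0.18 and Gzma 0.42 ± 0.20, and Klrb1c, Ncr1, Klrd1, Eomes and Gzmb did not pass. Gzma was the brightest of the NK and innate genes and made up most of their sums, which say little of the others.

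All 8 measured macrophage, monocyte and dendritic cell genes were negative (median -0.31, and -0.47 without USP8ff_CD4Cre replicate 2). For 3 of them the groups did not overlap and were lower with Cre, beside 16.3% of all genes. H2-Ab1 (-0.03 ± 0.12), Lyz1 (-0.06 ± 0.15), Cd68 (-0.12 ± 0.13) and Lyz2 (-0.19 ± 0.22) were within their errors of 0. The sums of the list were 4.38 and 4.95 without Cre and 3.25 and 3.58 with it. Ctss had -1.96 ± 0.21 and Mpeg1 -1.09 ± 0.23. Ctss was among the brightest genes of the list and had its largest difference, so the sums say little of the other genes. The defining genes Csf1r, Adgre1, Itgam, Itgax, Cd14, Fcgr1, Flt3 and H2-Aa did not pass the filter. B cell (2 measured, median -0.42), thymic stroma (3 measured, -0.10) and granulocyte genes (1 measured, -0.14) were mostly undetected. The part of any of these cells in the receptor values was not tested.

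**Figure D5:**
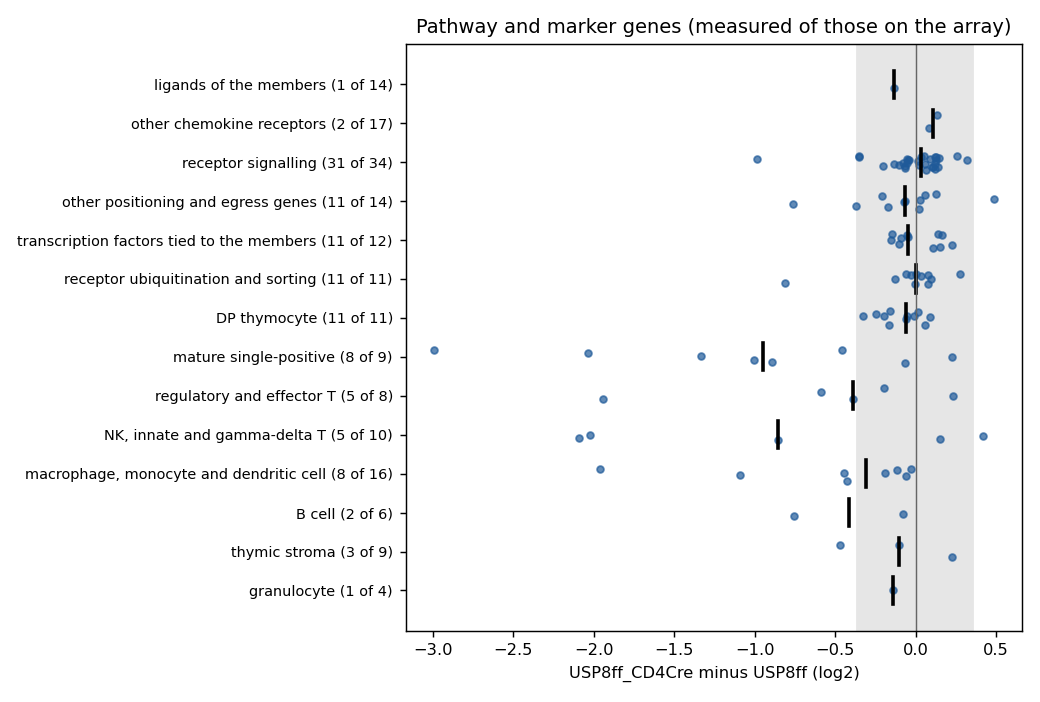
Differences of single genes (x axis, USP8ff_CD4Cre minus USP8ff, log2) in the pathway and marker lists, with black bars for list medians and the grey band for the central 90% of all genes. Most pathway genes lie within the band, and Nkg7 at -2.09 and Ctss at -1.96 are among the marker genes far below it.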

How the data were processed

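The scanner files hold spot intensities that the authors deposited as Agilent Feature Extraction 10.7.3.1 wrote them, background-subtracted and detrended within an array, per the file headers. The 4 arrays (1 colour) shared 1 slide and had no scaling between them. The authors' deposited table gives an absolute fold ratio and a p-value for 78 probes, with a test that the sources do not name. A further table has 4 value columns named for no sample and was left aside.

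Processed signals were put on a log2 scale and the 75th percentile over 43379 non-control spots was subtracted per array. Outlier spots were dropped (17 of 41174 probes lost), and replicate spots averaged. A probe was kept when both arrays of either genotype flagged it well above background (19038 probes), and the brightest probe stood for its gene. RefSeq (GRCm38.p6) named 26690 probes by accession, all 10 receptor probes included. Differences were fitted with limma 3.58.1 in R 4.3.3 (lmFit, eBayes) and adjusted over 13062 genes at 0.05. For the second probes of Cxcr4 and Ccr4 the SE came from the same model fitted to all 19038 kept probes. The code was tested on simulated data. The errors are those of eBayes, which draws each gene's pool-to-pool variance towards a value shared over all genes. They are thus not the spread of a gene's own pools. Within USP8ff and USP8ff_CD4Cre the log2 standard deviations were 0.38 and 0.26 for Ccr7. For the first Ccr2 probe they were 0.44 and 1.199. With 2 pools a genotype, precision is limited by how few arrays there are. The receptor genes and lists were chosen with earlier results of these data known. Genes to name were Usp8, the receptors, up to 4 per list with the smallest p and the 3 nearest genes per receptor. Not all of the list genes under that rule are given in the text. Chromosome 9 neighbours and genes named as not passing the filter were added afterwards. Cd4, Cd8a, Cd52, H2-Ab1, Lyz1, Cd68 and Lyz2 also fall outside the rule. Alternatives were quantile and median scaling, normexp (offset 50), other filters and probe rules, outlier spots kept, an eBayes trend, a replicate block and each array left out.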

Additional observations from a re-analysis of the deposited data

How the results depend on the processing

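No gene passed the adjusted threshold in limma under any of the 14 alternatives run, while the number at an unadjusted p under 0.05 moved from 970 to 1338 with a replicate block and to 396 without USP8ff_CD4Cre replicate 2. The replicate numbers were not taken to pair the samples. Across 13062 genes, the deviations of both arrays numbered 1 from their group means had a correlation of 0.321. With the replicate block the smallest adjusted p in limma was 0.0908 and the difference of Ccr7 -1.24 ± 0.23. Median scaling gave 485 lower and 337 higher genes before adjustment. With quantile normalization the difference of Ccr9 was 0.054, and the list medians were -0.0268 for receptor signalling, -0.1037 for transcription factors and -0.1854 for DP markers. With normexp, Ccr8 was at 0.25, Cxcr3 at -0.586, Ccr2 at -0.345, mature single-positive genes at -0.670 and NK and innate genes at -0.4705. The second Ccr2 probe gave -0.236. With the mean of probes the medians were 0.0018 for transcription factors and -0.1578 for DP markers. With the filter on all 4 arrays they were -0.4565 for mature single-positive, -0.3525 for NK and innate and -0.2878 for stroma genes, where fewer genes were counted. With no filter they were -0.1719 for regulatory and effector T and -0.2116 for macrophage genes. Leaving out single arrays gave medians from -0.1061 to 0.0768 for positioning genes, from -0.0139 to 0.0809 for transcription factors, from -0.185 to -0.0139 for DP markers, from -1.15 to -0.563 for NK and innate genes and from -0.4665 to -0.2094 for macrophage genes. The cause of these shifts was not tested. Signal over background limits Cxcr3, Ccr8 and Ccr2, and differences that rest on unflagged readings give no size. Among the receptors, a fold against a floor is given for the first Ccr2 probe alone, and it is no strict minimum.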
